A study of Homo sapiens with 12 samples.

Results

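Untreated SKBR3 cells were compared with untreated MDA-MB-453 cells, that is, the baseline transcriptomes of 2 established breast cancer cell lines; in the study both stand for the HER2 subtype. The comparison rests on the 3 untreated libraries of each line, 6 of the 12 libraries of the series, and on all genes of the count tables. The other 6 libraries, 3 of each line, come from cells given 10 ng/ml TWEAK for 48 h, replenished after 24 h.

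HER2, the product of ERBB2, is a receptor tyrosine kinase of the EGF receptor family that has no known ligand of its own and signals as a dimer with its relatives EGFR, HER3 and HER4. In part of breast cancers the chromosome segment that carries ERBB2 is amplified, and genes next to it are copied and overexpressed with it. Luminal breast cells are recognised by keratins such as KRT8 and KRT18, by EPCAM and by the transcription factors FOXA1 and GATA3, and some breast cancers share genes with apocrine sweat glands. TWEAK, the ligand used in the study, binds the receptor Fn14, encoded by TNFRSF12A, and activates NF-κB.

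Both untreated groups carry the same description for tissue (Breast) and cell type (Breast Cancer), and differ in the labelled cell line. One growth text covers all libraries: seeding in DMEM with 10% serum, and after 24 h a change to a low-serum medium for 8 h of starvation. That text then turns to TWEAK, and how long the untreated dishes were kept after starvation is not stated. Each line is 1 culture stock, and the counts of each line were deposited as a table of its own, so that the line and the run or table cannot be told apart. The methods call the replicates biological, and p-values measure the spread between these libraries. The libraries held 24842722 to 28647209 counts in SKBR3 and 25675770 to 26262736 in MDA-MB-453. Reads of mitochondrial genes took 4.02% to 4.09% of the counts in SKBR3 and 7.38% to 7.95% in MDA-MB-453, and the 10 highest genes took 6.92% to 7.8% in the 6 libraries. Levels below are in CPM, the counts of a gene scaled by library size and TMM factor over the 6 libraries, and are given as the mean ± SD (n = 3). Fold changes are log2 values of SKBR3 minus MDA-MB-453, and p-values are adjusted over all genes tested by edgeR.

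Most genes differed between the lines. Of 16315 genes tested, 7311 (44.8%) were higher in SKBR3 and 6915 (42.4%) were higher in MDA-MB-453 at an adjusted p of at most 0.1 in edgeR's quasi-likelihood test. Since a test of no difference called nearly all genes, a difference beyond 2-fold was tested as well. It called 3514 genes (21.5%) higher in SKBR3 and 2662 (16.3%) higher in MDA-MB-453, and the replicates of the 2 lines did not overlap for any of these 6176 genes. Of all tested genes, 85.3% had replicates that did not overlap. At least 10-fold differences were fitted for 1543 of the genes called beyond 2-fold that were higher in SKBR3 and for 784 that were higher in MDA-MB-453. The median over all tested genes was 0.03. The counts for gene groups below are to be read against the shares of 21.5% and 16.3%, and "beyond 2-fold" refers to this test throughout. In any group, a member at or near 0 in 1 line passed the filter on low counts only through the line where it is high, so that the counts describe the tested members and lend no support to a direction.

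The labels name breast cancer cells, and markers of breast epithelium were checked first. Of 16 luminal epithelial markers, all had a mean of at least 1 CPM in SKBR3 and 15 had it in MDA-MB-453. EPCAM, an epithelial adhesion protein, stood at 321, 308 and 310 CPM in the SKBR3 libraries and at 390, 378 and 386 in the MDA-MB-453 libraries. MUC1, a mucin of the luminal cell surface, was the exception, with 56.3 ± 4.4 CPM in SKBR3 and 0.198 ± 0.0586 in MDA-MB-453. SPDEF, a luminal transcription factor, was at 368 ± 28.4 CPM in SKBR3 against 368 ± 10.1 in MDA-MB-453, and its replicates overlapped (edgeR adjusted p = 0.991). With library totals alone it was called higher in MDA-MB-453 (-0.11, edgeR adjusted p = 0.0151). KRT5, a basal keratin, was at 0.302 CPM in SKBR3 and had no count in MDA-MB-453, and VIM, a filament protein of mesenchymal cells, was at 0.303 and 0.136 CPM. Markers of other cell types were mostly near 0. Of 10 fibroblast markers, 8 had at most 3 counts in every library, as did 6 of 9 endothelial and 6 of 13 leukocyte markers. The few that were measured included COL1A1, a fibrillar collagen, at 19.4 ± 1.49 CPM in SKBR3 and 121 ± 3.69 in MDA-MB-453. CSF1R, the receptor for a macrophage growth factor, was at 13.7 ± 1.2 CPM in SKBR3 against 0.0615 in MDA-MB-453, whereas PTPRC, which all leukocytes carry, was at 0.16 and 0.099 CPM. The summed level of the 13 leukocyte markers was 14.7 to 17.4 CPM in SKBR3, most of it CSF1R, and 0.33 to 0.748 in MDA-MB-453. CD2 and FCGR3A had no count in either line. The 9 endothelial markers summed to 4.33 to 5.33 and 0.403 to 0.553 CPM, with TIE1 and CLDN5 at 0. The 10 fibroblast markers summed to 18.3 to 21.3 and 117 to 123 CPM, the 12 basal markers to 17.6 to 20 and 18.9 to 20.9 CPM, and 10 hepatocyte and neuron markers, taken as a control, to 5.62 to 6.94 and 4.03 to 4.94 CPM. Each library pools the cells of 1 cultured line, so a low level in all cells and a higher level in a few cells cannot be told apart.

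ERBB2 was expressed strongly in both lines and more strongly in SKBR3. Its levels were 7477, 7454 and 8007 CPM in SKBR3 and 908, 901 and 876 CPM in MDA-MB-453. Every SKBR3 library thus lay far above every MDA-MB-453 library, with a log2 fold change of 3.09 ± 0.04 (SE; edgeR adjusted p = 3.71e-26 beyond 2-fold). GRB7, an adaptor protein encoded next to ERBB2, stood at 541, 552 and 592 CPM in SKBR3 and at 67.2, 64.8 and 65.5 in MDA-MB-453, a log2 fold change of 3.09 ± 0.04. EGFR was at 277, 280 and 256 CPM in SKBR3 and at 9.58, 9.63 and 10.6 CPM in MDA-MB-453, a log2 fold change of 4.77 ± 0.06 (edgeR adjusted p = 5.11e-28 beyond 2-fold). ERBB3, which encodes HER3, was nearly level at 294 ± 0.132 CPM in SKBR3 and 312 ± 6.27 in MDA-MB-453, a log2 fold change of -0.08 ± 0.04 (edgeR adjusted p = 0.0371). This call was lost without SKBR3 replicate 2 (edgeR adjusted p = 0.111). ERBB4 was low in both, at 1.93 ± 0.598 and 1.01 ± 0.109 CPM.

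Of 15 tested receptors and ligands of this family, 7 were higher in SKBR3 and 2 in MDA-MB-453 beyond 2-fold. EGF itself was at 36.6 CPM in SKBR3 and 1.95 in MDA-MB-453, a log2 fold change of 4.23, and EPGN, another ligand of EGFR, was at 2.73 ± 0.177 and 0.111 ± 0.0363 CPM. NRG3, a ligand of HER4, ran the other way, with no count in SKBR3 and 3.67, 5.27 and 4.53 CPM in MDA-MB-453, which is at least 37.5-fold higher against a floor of 3 counts per library. LRIG1, a negative regulator of these receptors, was at 61.1 ± 2.49 CPM in SKBR3 and 202 ± 7.82 in MDA-MB-453 (log2 fold change -1.72 ± 0.04).

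**Figure D1:**
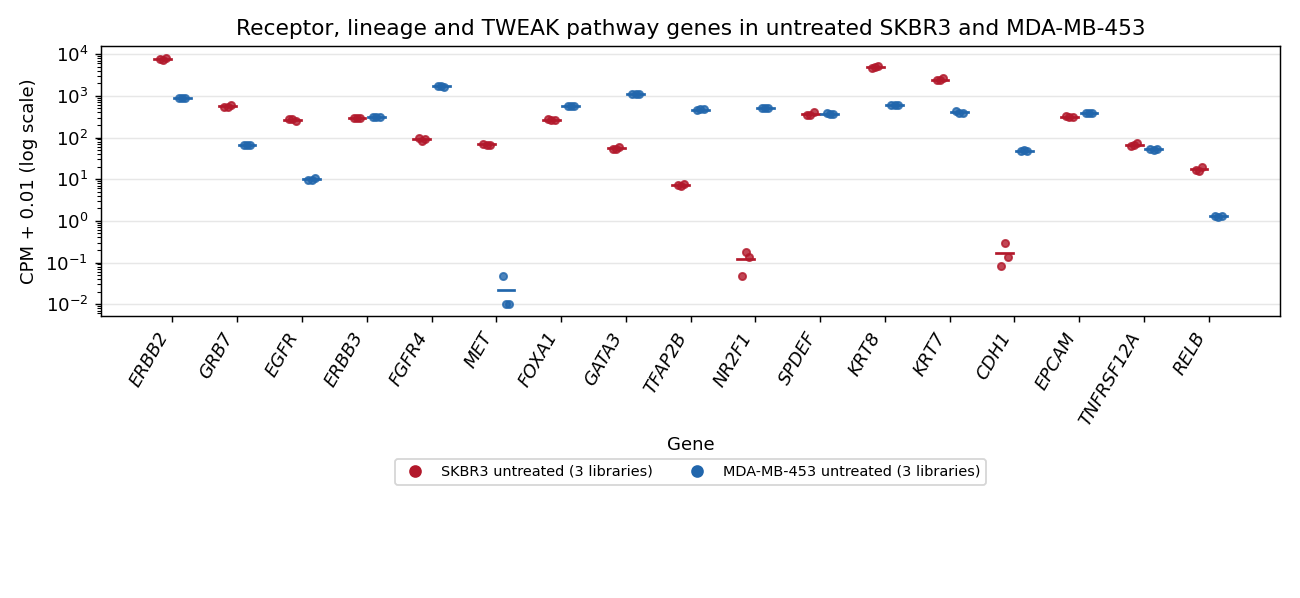
CPM + 0.01 on a log axis for receptor, lineage and TWEAK pathway genes in the 3 untreated libraries of SKBR3 and of MDA-MB-453; points are libraries and bars are means. ERBB2, EGFR, MET and the keratins sit higher in SKBR3, GATA3, TFAP2B, NR2F1, FGFR4 and CDH1 sit higher in MDA-MB-453, and SPDEF overlaps.

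The segment of chromosome 17 around ERBB2 (ERBB2 lies at chr17:39687914-39730426 in hg38) was followed gene by gene. Of 38 tested genes of the list of the ERBB2 amplicon, 29 (76.3%) were higher in SKBR3 beyond 2-fold and 6 (15.8%) were higher in MDA-MB-453, and the median log2 fold change was 2.78. This list was drawn around ERBB2, whose overexpression in SKBR3 is well known, and its direction is not independent of that choice. The excess in SKBR3 began with PLXDC1, which starts at a distance of -0.625 Mb from ERBB2, and RPL19, a ribosomal protein gene at -0.488 Mb, reached 10636 CPM in SKBR3 against 581 in MDA-MB-453. CDK12, a kinase of transcription, was at 1915 and 126 CPM, and MED1, a subunit of Mediator, was at 1076 and 122 CPM. Of the genes within about 0.05 Mb of ERBB2, PNMT had a log2 fold change of 1.93, PGAP3 of 2.27, MIEN1 of 2.29, TCAP of 2.75 and GRB7 of 3.09. The excess went on through GSDMB, a pore-forming protein (532 and 9.78 CPM), and RARA, a retinoic acid receptor (152 ± 9.52 and 13.7 ± 0.98 CPM), to TOP2A, a DNA topoisomerase 0.701 Mb after the ERBB2 start (989 ± 63.6 and 296 ± 0.599 CPM). IGFBP4, 0.756 Mb after it, was lower in SKBR3 (0.995 ± 0.116 against 11.8 ± 0.404 CPM).

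On the near side MLLT6 and LASP1 were not called, and PCGF2, a Polycomb protein, was lower in SKBR3 (19.1 ± 0.559 against 54.2 ± 1.09 CPM, log2 fold change -1.50 ± 0.05). On the far side no such border followed TOP2A. After IGFBP4 the excess in SKBR3 resumed with TNS4, a focal adhesion protein at 0.788 Mb, and SMARCE1, a chromatin remodelling subunit, and went on through the keratin genes, JUP and STAT3 to CAVIN1 at 2.71 Mb. Among them KRT32 and DHX58 were lower in SKBR3, and HAP1 and ZNF385C were not called. JUP, which encodes a desmosomal plakoglobin, was at 1260 and 205 CPM, STAT5B at 111 and 5.07 CPM and STAT3 at 498 and 71.6 CPM, the latter 2 being transcription factors of cytokine signalling. From ATP6V0A1, 2.77 Mb after the ERBB2 start, most genes were not called. RNA counts alone were measured here, and gene copy number was not.

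**Figure D2:**
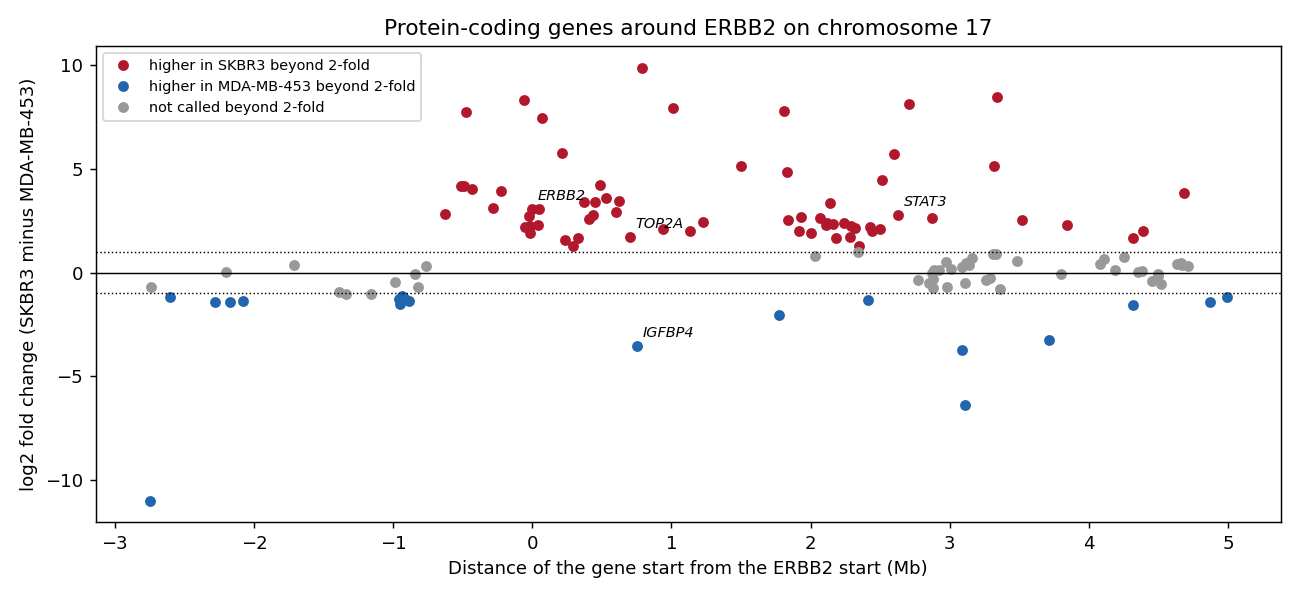
Log2 fold change (SKBR3 minus MDA-MB-453) of tested protein-coding genes against the distance of their start from the start of ERBB2 in Mb; colours give the call beyond 2-fold and dotted lines mark 1 and -1. Genes from -0.625 Mb to 0.701 Mb, where TOP2A starts, are all higher in SKBR3, IGFBP4 just after them is lower, and most genes after it are higher in SKBR3 up to 2.71 Mb.

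Other receptor tyrosine kinases differed in both directions, with 12 of 34 tested genes higher in SKBR3 and 13 higher in MDA-MB-453 beyond 2-fold. FGFR4, a fibroblast growth factor receptor, stood in MDA-MB-453 at 1721, 1711 and 1658 CPM, while SKBR3 had 95.1, 84.5 and 94 CPM (log2 fold change -4.22 ± 0.05, edgeR adjusted p = 1.11e-28 beyond 2-fold). FGFR2 and FGFR3 ran the other way, at 36.6 and 43.1 CPM in SKBR3 and at 2.66 and 1.29 in MDA-MB-453. MET, the hepatocyte growth factor receptor, stood at 70.2, 67.8 and 66.5 CPM in SKBR3 and had 1 count over the 3 MDA-MB-453 libraries, a ratio of 5539 with a 95% counting interval of 994 to 218834. Intervals of this kind cover counting error only. RET, the GDNF family receptor kinase, was at 0.836 CPM in SKBR3 and 76.6 in MDA-MB-453. ROR2, a WNT receptor, had 1 count over the SKBR3 libraries and 25.6 ± 2.25 CPM in MDA-MB-453 (ratio 1937, interval 347 to 76543). IGF1R, the insulin-like growth factor receptor, was at 37.9 ± 1.57 and 36.8 ± 0.201 CPM with overlapping replicates (log2 fold change 0.04 ± 0.05, edgeR adjusted p = 0.447). With a correction for GC content and gene length it was called higher in MDA-MB-453 (-0.13, edgeR adjusted p = 0.0113).

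The oestrogen receptor gene ESR1 was very low, at 0.503 ± 0.0846 CPM in SKBR3 and with 2 counts over the MDA-MB-453 libraries. PGR, the progesterone receptor, had 3 counts over the SKBR3 libraries and 0.407 ± 0.115 CPM in MDA-MB-453, and did not pass the filter on low counts.

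Of 32 tested hormone receptors and luminal transcription factors, 9 were higher in SKBR3 and 11 in MDA-MB-453 beyond 2-fold. GATA3, a luminal master regulator, was at 53.4, 52.9 and 60.3 CPM in SKBR3 and at 1105, 1112 and 1107 in MDA-MB-453, a log2 fold change of -4.32 ± 0.05. FOXA1, a pioneer factor that opens chromatin for hormone receptors, was high in both, at 264 ± 6.73 and 570 ± 8.9 CPM. The AP-2 factors split between the lines. TFAP2B was at 7.29, 6.86 and 7.52 CPM in SKBR3 and at 455, 471 and 472 CPM in MDA-MB-453, whereas TFAP2C was at 277 and 56.4 CPM (log2 fold change 2.29). NR2F1, an orphan nuclear receptor, had 1 to 4 counts per SKBR3 library and 502, 505 and 500 CPM in MDA-MB-453. ELF5, a factor of luminal progenitors, was at 22.6, 23.3 and 21.2 CPM in SKBR3 and had no count in MDA-MB-453, a level at least 202-fold higher in SKBR3. XBP1, a factor of the secretory pathway, was at 915 ± 6.78 and 1932 ± 23 CPM.

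Apocrine and hormone-responsive genes differed in both directions. Among 31 tested, 14 were higher in SKBR3 and 11 in MDA-MB-453 beyond 2-fold. CLCA2, a secreted regulator of chloride conductance, stood at 0.798, 1.37 and 1.29 CPM in SKBR3 and at 1520, 1580 and 1579 CPM in MDA-MB-453 (log2 fold change -10.41 ± 0.08). AZGP1, a secreted glycoprotein, was at 42.3 ± 1.82 and 447 ± 10.2 CPM, and PIP, a prolactin-induced secretory protein, at 0.954 ± 0.211 and 29 ± 2.51 CPM. FKBP5, a chaperone of steroid receptors, was at 34.3 and 118 CPM. In the other direction SCGB2A2, which encodes mammaglobin, was at 4.72 ± 0.187 CPM in SKBR3 against 0.284 ± 0.0459 in MDA-MB-453, and APOD, an apolipoprotein, was at 3.73 ± 0.386 CPM with 2 counts over the MDA-MB-453 libraries. SERHL2, a serine hydrolase-like gene, was at 414 ± 19.7 and 0.875 ± 0.0253 CPM, and 46% of its exonic length overlaps a gene on the opposite strand, whose reads could be counted to it since the strand setting is not stated.

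Keratins, the intermediate filaments of epithelia, were higher in SKBR3 beyond 2-fold for 15 of 16 tested genes (93.8%), with a median log2 fold change of 2.87, and 1 was lower. Of these genes 13 had a mean of at least 1 CPM in SKBR3 against 6 in MDA-MB-453, and members near 0 in MDA-MB-453, such as KRT13 with no count there, passed the filter only through SKBR3. KRT8 stood at 4779, 4930 and 5267 CPM in SKBR3 and at 610, 591 and 592 in MDA-MB-453. KRT18, its partner, was at 2207 ± 168 and 573 ± 10.9 CPM, KRT19 at 3773 ± 223 and 646 ± 14.4 CPM, and KRT7 at 2466 ± 140 and 404 ± 18.4 CPM. KRT4, a mucosal keratin, and KRT81, a hair keratin, were at 384 ± 10.1 and 526 ± 27.4 CPM in SKBR3 and at 0.333 and 0.506 in MDA-MB-453. Several type I keratin genes, KRT19 among them, lie in the run of genes after ERBB2.

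The adhesion genes gave a mixed picture, with 16 of 49 tested junction genes higher in SKBR3 and 6 higher in MDA-MB-453 beyond 2-fold. CDH1, which encodes E-cadherin, stood out, with 2, 7 and 3 counts in the SKBR3 libraries (0.163 ± 0.114 CPM) and 46.5, 49.4 and 47.6 CPM in MDA-MB-453. CDH3, the P-cadherin gene next to it, had 1 count over the SKBR3 libraries and 5.04 ± 0.203 CPM in MDA-MB-453. JUP and DSP, proteins of desmosomes, were higher in SKBR3, DSP at 393 against 75.1 CPM, and CTNNA1, the catenin that links cadherins to actin, was at 1116 and 371 CPM. Of 28 tested integrin and laminin chains, 14 were higher in SKBR3 and 4 higher in MDA-MB-453 beyond 2-fold, and 2 were found in SKBR3 only. LAMB1, a laminin chain, was at 462 and 15.2 CPM, but ITGA6, a laminin-binding integrin, was at 0.699 ± 0.337 CPM in SKBR3 and 180 ± 6.44 in MDA-MB-453.

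Of 27 tested mesenchymal genes, 20 (74.1%) were higher in SKBR3 and 5 (18.5%) higher in MDA-MB-453 beyond 2-fold, and the median log2 fold change was 4.42, or 4.08 with levels of at most 3 counts per library set to 3 counts. Of the 27, 24 had a mean of at least 1 CPM in SKBR3 against 10 in MDA-MB-453. Members at or near 0 in 1 line passed the filter on low counts only through the other, so that these counts lend no support to a direction. FN1, fibronectin, was at 245 and 2.6 CPM, and CD44, a hyaluronan receptor, at 4.75 CPM with 1 count over the MDA-MB-453 libraries. The regulators ZEB1, ZEB2, SNAI2, TWIST1 and TWIST2 were below 0.3 CPM in both lines, while SNAI1 was at 4.11 and 0.346 CPM. TNC, tenascin C, was the main gene in the opposite direction, at 0.181, 0.374 and 0.376 CPM in SKBR3 and 637, 679 and 661 CPM in MDA-MB-453. CDH2, N-cadherin, had 2 counts over the SKBR3 libraries and 5.6 ± 0.349 CPM in MDA-MB-453.

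S100 proteins, small calcium-binding proteins, were higher in SKBR3 beyond 2-fold for 11 of 15 tested genes and for none in the other direction, with a median of 3.64, or 3.04 with levels of at most 3 counts per library set to 3 counts. Members at or near 0 in MDA-MB-453 passed the filter only through SKBR3 here as well. S100A4 stood at 241, 259 and 273 CPM in SKBR3 and had 6 counts over the MDA-MB-453 libraries, a ratio of 3477 (counting interval 1597 to 9477). S100A6 was at 914 and 2.32 CPM, S100P at 120 ± 8.97 and 0.185 ± 0.0741 CPM and S100A9 at 128 and 5.13 CPM. Among mucins, MUC16, the CA125 antigen, was at 153 ± 17.5 and 0.123 ± 0.0203 CPM, and MUCL1, a small breast mucin, at 0.373 ± 0.0751 and 46.4 ± 1.95 CPM.

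Cancer-testis antigens are proteins normally made in germ cells. Of 52 in the tables, 10 passed the filter on low counts. These 10 were higher in SKBR3 beyond 2-fold, but with so few counts in MDA-MB-453 they could pass the filter only through SKBR3. PRAME was the lowest of them at 0.926 CPM in SKBR3, and XAGE2 and CSAG1 stood at 8.05 and 6.21 CPM, all 3 with no count in MDA-MB-453. MAGEA3 was at 98, 96.5 and 97.1 CPM in SKBR3 and had 1 count over the MDA-MB-453 libraries, and CTAG2 was at 91.2, 95.7 and 112 CPM with 2 counts. MAGEA3, MAGEA6 and MAGEA12 have near-identical copies, and how the counting shared their reads is not stated, so that their levels are uncertain gene by gene. A median log2 fold change of 10.53 for the list becomes 6.48 with levels of at most 3 counts set to 3 counts.

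Of 47 tested interferon-stimulated genes, 34 (72.3%) were higher in MDA-MB-453 and 5 (10.6%) in SKBR3 beyond 2-fold, with a median of -2.66, and the labels name no interferon. Of these genes 28 had a mean of at least 1 CPM in SKBR3 against 40 in MDA-MB-453, and 6 were found in MDA-MB-453 only, which passed the filter only through that line. ISG15, a ubiquitin-like protein, was at 4.28 CPM in SKBR3 against 149 in MDA-MB-453, and IFIT1, a sensor of foreign RNA, at 0.193 and 118 CPM. IFI6 was at 7.11 and 398 CPM, OAS3, which makes an activator of RNase L, at 14.4 and 302 CPM, and BST2, which tethers viruses, at 2.91 and 445 CPM. RSAD2 and CMPK2, neighbours on chromosome 2, had no count in SKBR3 and stood at 4.31 ± 0.847 and 3.92 ± 0.702 CPM in MDA-MB-453, at least 36-fold and 32.8-fold higher. Of the factors that drive these genes, IRF9 was at 2.62 and 16.5 CPM and IRF7, itself induced by interferon, at 5.34 and 116 CPM. The 5 exceptions were LGALS3BP, a secreted glycoprotein (1246 ± 106 and 15.1 ± 1.62 CPM), IFITM3 (32 ± 4.39 and 0.53 ± 0.099 CPM), IFI35, GBP3 and ISG20. IFI35 lies 3.32 Mb after the ERBB2 start, beyond CAVIN1 at 2.71 Mb, and RPL27 and VAT1 on either side were not called beyond 2-fold.

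**Figure D3:**
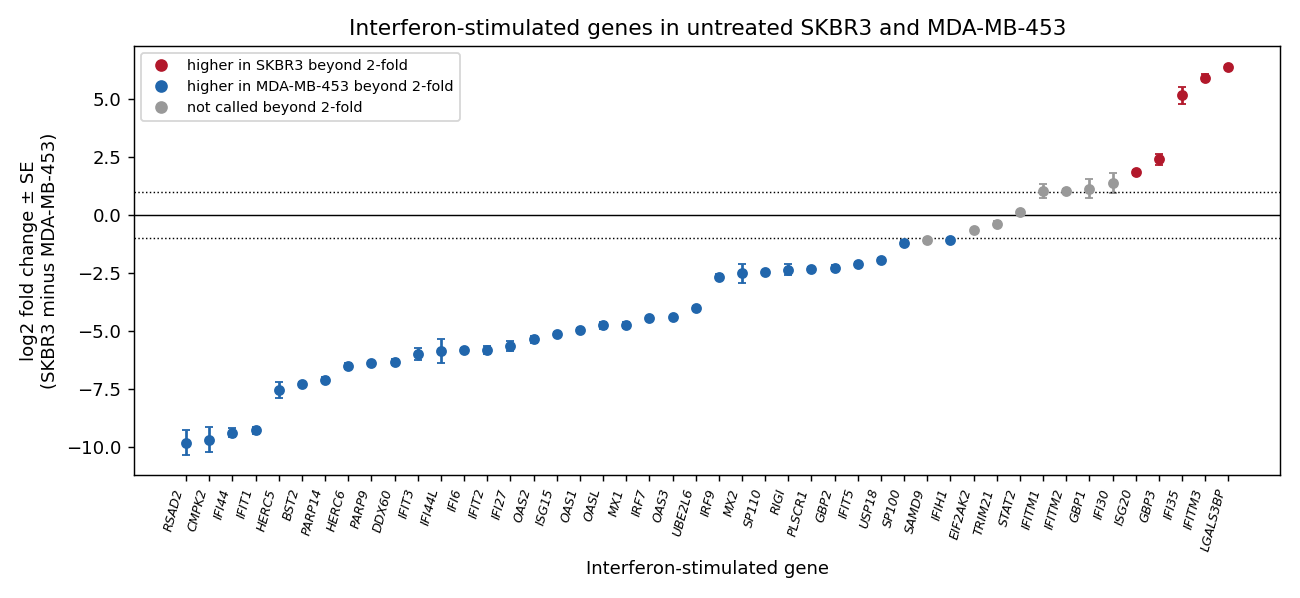
Log2 fold change ± SE (SKBR3 minus MDA-MB-453) of tested interferon-stimulated genes, ordered by size; colours give the call beyond 2-fold. RSAD2 and CMPK2, with no count in SKBR3, are at the left end, their fitted values depend on the prior count, and LGALS3BP is at the right end.

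The bases before the start sites of 2 of these genes are shown because the response element that interferon factors bind has a known core. The sequences are from RefSeq (GRCh38.p14), 200 bases before the start site, 5′ to 3′ on the strand of the gene, and the capitals mark GAAANNGAAA or its reverse complement. Overlapping matches form 1 run of capitals. They are ISG15 at chr1:1013297-1013496 on the plus strand and IFIT1 at chr10:89392423-89392622 on the plus strand.
ISG15: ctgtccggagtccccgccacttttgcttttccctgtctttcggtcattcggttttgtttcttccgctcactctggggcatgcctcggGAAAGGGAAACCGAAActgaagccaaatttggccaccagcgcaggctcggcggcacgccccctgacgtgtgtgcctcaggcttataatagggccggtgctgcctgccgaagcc
IFIT1: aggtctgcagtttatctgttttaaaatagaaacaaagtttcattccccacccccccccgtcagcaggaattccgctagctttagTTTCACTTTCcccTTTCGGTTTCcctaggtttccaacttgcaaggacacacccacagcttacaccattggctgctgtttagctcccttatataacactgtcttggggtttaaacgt
RefSeq windows of 300 bases, 250 before and 50 after the start, were matched for 27 of the 47 tested genes, too few to stand for the list. Of these 27 windows, 20 (74.1%) held the motif on either strand, against 1255 of all 35116 windows of the table (3.57%). It was found in the windows of genes of both directions, IFITM3 and LGALS3BP included, and a match does not show that a factor binds there.

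MHC class I genes, which present peptides to T cells, included classical chains that were lower in SKBR3. HLA-C was at 0.508, 0.707 and 0.752 CPM in SKBR3 and at 233, 215 and 229 CPM in MDA-MB-453. HLA-B was at 1.73 and 9.37 CPM. These genes resemble each other and vary in sequence, so that their levels are uncertain gene by gene. The non-classical HLA-E ran the other way at 84.7 ± 6.16 and 19.9 ± 0.75 CPM (log2 fold change 2.09 ± 0.06). B2M, the light chain of all class I molecules, was at 185 ± 3.59 and 304 ± 19.5 CPM and was not called beyond 2-fold. NLRC5, the transactivator of class I genes, was at 0.714 and 7.35 CPM. In all, 4 of 27 tested genes of antigen presentation were higher in SKBR3 and 10 in MDA-MB-453 beyond 2-fold.

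Position genes of the HOX clusters were higher in MDA-MB-453 for all 11 tested, of which 8 passed beyond 2-fold. Here too, members at or near 0 in SKBR3 passed the filter only through MDA-MB-453. HOXC10 was at 9.21 and 119 CPM, HOXB2 had 3 counts over the SKBR3 libraries and 19 ± 0.224 CPM in MDA-MB-453, and HOXB3 had 1 count and 8.33 ± 0.543 CPM. A further 26 of 39 HOX genes had at most 3 counts in every library.

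Cell-cycle genes leaned towards MDA-MB-453, where 52 of 70 tested genes were higher and 14 were lower in the test of no difference, which called 42.4% and 44.8% of all genes. Beyond 2-fold it was 17 and 7 (24.3% and 10%). The replicative helicase genes MCM2, MCM3, MCM5 and MCM6 were at 93.2, 110, 75.6 and 91.3 CPM in SKBR3 and at 293, 324, 235 and 263 CPM in MDA-MB-453. CCNE2, a cyclin of S-phase entry, was at 8.02 ± 1.05 and 65.3 ± 1.32 CPM, and E2F1, a factor that turns on S-phase genes, at 45.6 ± 0.726 and 153 ± 4.04 CPM. CCNE2 has 37.1% of its exonic length under a gene on the opposite strand, whose reads could be counted to it. CDC6, which loads the helicase, and TOP2A were higher in SKBR3, and both lie in the segment after ERBB2. CDK6, a G1 kinase, was at 52.2 ± 2.54 and 0.962 ± 0.172 CPM.

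Among tumour suppressors and oncogenes, 7 of 52 tested were higher in SKBR3 and 17 in MDA-MB-453 beyond 2-fold. MYC was at 168 ± 8.19 and 48.7 ± 0.965 CPM. PIK3R1, the regulatory subunit of PI3-kinase, was at 14.4 and 245 CPM. RB1, the retinoblastoma protein, was at 52.3 ± 2.65 and 107 ± 3.01 CPM (-1.03 ± 0.05, edgeR adjusted p = 0.287 beyond 2-fold). CDKN2A was at 22.7 ± 0.98 and 14.8 ± 0.338 CPM.

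The receptor for TWEAK was present in both lines at similar levels. TNFRSF12A was at 61.5, 66 and 73.4 CPM in SKBR3 and at 52.7, 51.5 and 53 CPM in MDA-MB-453, a log2 fold change of 0.35 ± 0.05 (edgeR adjusted p = 1.81e-06) that was not called beyond 2-fold (adjusted p = 1). The ligand gene TNFSF12 was listed at 0 in all 6 libraries, and 12.1% of its exonic length overlaps another gene on the same strand. Of 31 tested genes of TWEAK, Fn14 and NF-κB signalling, 7 were higher in SKBR3 and 7 in MDA-MB-453 beyond 2-fold.

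Of the 5 NF-κB subunits, NFKB1 (70.7 ± 4.37 and 65 ± 0.526 CPM) and RELA (95 ± 6.07 and 83.2 ± 0.571 CPM) were not called beyond 2-fold, and the other 3 were higher in SKBR3. RELB, a partner of the non-canonical pathway, was at 16.2, 15.7 and 19.6 CPM in SKBR3 and at 1.31, 1.21 and 1.29 CPM in MDA-MB-453 (3.75 ± 0.13), NFKB2, whose product p100 is processed in that pathway, was at 67.9 ± 3.11 and 25.2 ± 0.913 CPM, and REL was at 17.6 and 1.56 CPM. MAP3K14, the NF-κB-inducing kinase, was close, at 10.3 ± 0.316 and 7.29 ± 0.496 CPM. TNFAIP3 and BIRC3, feedback and survival genes that NF-κB turns on, were at 8.46 ± 0.855 and 2.28 CPM in SKBR3 and at 0.53 ± 0.148 and 0.666 in MDA-MB-453. TRAF5, an adaptor of TNF receptors, was the gene with the largest difference in the other direction, at 1.23 ± 0.152 and 26.7 ± 0.685 CPM, and NFKBIZ, an atypical inhibitor, was at 3.97 ± 0.696 and 19.4 ± 1.29 CPM.

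Of 45 tested genes of cholesterol and fatty-acid synthesis, 7 were higher in SKBR3 and 15 in MDA-MB-453 beyond 2-fold. In the sterol pathway HMGCS1 was at 115 and 547 CPM. In fatty-acid synthesis FASN was at 10347 and 2427 CPM and ACLY, which supplies its substrate, at 1139 and 354 CPM, the latter 2.18 Mb after the ERBB2 start. The desaturases FADS1 and FADS2 were at 0.483 ± 0.122 and 4.42 ± 0.309 CPM in SKBR3 and at 39.3 ± 1.62 and 40.6 ± 0.853 in MDA-MB-453. Of 43 tested NRF2 targets and glutathione genes, 11 were higher in SKBR3 and 4 in MDA-MB-453 beyond 2-fold, and of 22 metallothioneins and zinc transporters 7 and 2. ME1, malic enzyme, was at 106 ± 2.06 CPM with 5 counts over the MDA-MB-453 libraries, and GSTM3, a glutathione transferase, at 124 ± 5.32 CPM with 2 counts. GPX1, the main glutathione peroxidase, had 5 counts over the SKBR3 libraries and 14.4 ± 0.986 CPM in MDA-MB-453. SLC39A8, a zinc and manganese importer, was at 2.59 ± 0.19 and 44.4 ± 1.77 CPM, and MT1G, a metallothionein, at 7.6 ± 0.404 CPM with 1 count over the MDA-MB-453 libraries.

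All 13 mitochondrially encoded mRNAs were higher in MDA-MB-453, 3 of them beyond 2-fold, with a median log2 fold change of -0.79. MT-CO1 was at 6119 ± 91.4 and 14591 ± 548 CPM and MT-CO3, another subunit of cytochrome oxidase, at 1954 ± 90.2 and 6109 ± 234 CPM. The share of mitochondrial reads given above moves with this group, and its part in the result was not tested.

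Ligands of growth factor and cytokine families were higher beyond 2-fold in SKBR3 for 20 and in MDA-MB-453 for 10 of 40 tested genes, of which 6 were found in SKBR3 only and 1 in MDA-MB-453 only. BMP7 stood at 246, 244 and 258 CPM in SKBR3 and had 1 count over the MDA-MB-453 libraries, whereas BMP4 was at 2.39 and 67.8 CPM. JAG2, a ligand of Notch, was at 6 and 151 CPM, and WNT5A, a non-canonical WNT, at 67.1 and 6.28 CPM. TNFSF10, which encodes TRAIL, was at 0.363 and 24.4 CPM.

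Some genes were found in 1 line only, meaning at least 1 CPM in each library of that line and at most 3 counts in each library of the other. This held for 654 genes in SKBR3 (504 protein-coding, 119 lncRNAs) and for 243 in MDA-MB-453 (166 and 61). With a mean of at least 10 CPM there were 166 and 61. In the TWEAK-treated libraries of the other line, 577 of the 654 and 210 of the 243 were again at 3 counts or fewer in each library. In SKBR3 they included TIMP2, a metalloproteinase inhibitor (229 ± 8.69 CPM, 6 counts in MDA-MB-453), EFEMP1, a matrix protein (143 ± 2.16 CPM, 6 counts), TDRD1, a germline piRNA factor (141 ± 9.03 CPM, 4 counts), ALDH1A3, which makes retinoic acid (127 ± 2.41 CPM, 2 counts), and PLTP, a phospholipid transfer protein (117 ± 8.93 CPM, 2 counts). PODXL2, a sialomucin, was at 104 ± 9.64 CPM and CX3CL1, a membrane-bound chemokine, at 101 ± 7.75 CPM, each with 1 count in MDA-MB-453. PKIA, PRKD3, RRAS2, SLC15A1, SLC5A8 and HSPB7 had no count in MDA-MB-453 and 33.1 to 64.2 CPM in SKBR3. ALDH1A3 has 32.2% of its exonic length under a gene on the opposite strand.

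In MDA-MB-453 they included APOBEC3B, a DNA cytidine deaminase, with 0, 0 and 1 counts in the SKBR3 libraries and 79.1, 78.6 and 80.8 CPM in MDA-MB-453 (ratio 6008, counting interval 1078 to 237351). LGALS3, the galectin-3 gene, was at 76 ± 2.11 CPM with 3 counts in SKBR3, SLC1A7, a glutamate transporter, at 68.2 ± 4.81 CPM with none, and ANKRD30A, a breast differentiation antigen, at 55.8 ± 3.01 CPM with 4. ADCY2, an adenylyl cyclase, was at 53.1 ± 0.323 CPM, B3GNT5, a glycosyltransferase, at 51.3 ± 2.38 CPM, ARMCX3 at 50 ± 0.246 CPM and RHOD, a small GTPase, at 53.3 ± 1.87 CPM. SLC43A3, at 64.2 ± 1.62 CPM, shares 29.9% of its exonic length with another gene on the same strand. HFE, an iron regulator, had no count in SKBR3 and 24.3 ± 0.295 CPM in MDA-MB-453.

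Among lncRNAs, H19, an imprinted transcript, stood at 1956, 1872 and 2118 CPM in SKBR3 and at 0.337, 0.403 and 0.664 CPM in MDA-MB-453 (12.03 ± 0.09), with no overlap. NEAT1, the scaffold of paraspeckles, was at 779 ± 34.7 and 234 ± 14.5 CPM, and OIP5-AS1 and CRNDE were higher in MDA-MB-453, at 92.1 ± 2.27 and 267 ± 4.73 CPM and at 48.5 ± 2.9 and 136 ± 0.535 CPM. Calls beyond 2-fold made up 44.9% of 2455 tested lncRNAs and 36.8% of 12835 protein-coding genes, a difference that was not tested.

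The position of the genes was described last, with medians over windows of 5 Mb that held at least 10 tested genes and with no test. Chromosome 7 had a median log2 fold change of 1.01 and 45.8% of its 812 tested genes higher in SKBR3 beyond 2-fold, while chromosome 22 had a median of -0.62. High medians were found on chromosome 17 between 20 and 25 Mb, outside the ERBB2 segment (3.12, or 2.41 with levels of at most 3 counts per library set to 3 counts), and on chromosome 8 at 75 to 80 Mb (2.83, or 2.67) and 120 to 125 Mb (2.32, or 2.27). Low medians were found on chromosome 8 at 90 to 95 Mb (-1.56) and on chromosome 4 at 155 to 160 Mb (-1.60). In windows of 10 Mb the medians of chromosomes 17 and 4 shrank to 1.41 and -0.22, and the low one of chromosome 8 to -0.96. The window with the lowest median was chromosome 19 from 20 to 25 Mb, at -9.35 over 32 tested genes, or -5.61 with levels of at most 3 counts per library set to 3 counts. Of these 32 genes, 28 were higher in MDA-MB-453 beyond 2-fold and 25 were found only in MDA-MB-453.

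That window holds a cluster of KRAB-type zinc finger genes, which encode DNA-binding repressors. Of 21 tested genes in it whose names begin with ZNF, 20 were higher in MDA-MB-453 beyond 2-fold and 19 were found there only. These 19 had at most 1 count in any SKBR3 library and passed the filter only through MDA-MB-453, and the 10 that were not tested had at most 1 count in every library, so that the counts and the median describe the genes that were expressed and are no test of the region. ZNF714 stood at 59.3, 64.3 and 62.5 CPM in MDA-MB-453 and had 0, 1 and 1 counts in SKBR3. ZNF91, ZNF708, ZNF429, ZNF430 and ZNF254 had no count in any SKBR3 library and 11.9 to 24.1 CPM in MDA-MB-453, ZNF91 being at least 201-fold higher. ZNF486, near one end of the row, was reversed, with 445, 374 and 349 counts in the SKBR3 libraries against 1, 1 and 2 in those of MDA-MB-453. ZNF90, the next gene, was expressed in both lines at 3.95 and 12 CPM. Over the whole of chromosome 19, this window included, 68 of 214 tested ZNF genes were higher in MDA-MB-453 and 19 in SKBR3 beyond 2-fold, and on other chromosomes 52 and 26 of 234. Further along chromosome 19, ZNF382 (0.0622 and 9.55 CPM), ZNF790 (0.118 and 5.63 CPM), ZNF568 (0.0399 and 4.52 CPM) and ZNF793 (0.0399 and 10.1 CPM), picked after their values were seen, ran the same way, while ZNF260 and ZNF875 nearby were not called. Before the window, ZNF441, ZNF433 and ZNF844, also picked so, ran the other way. They were at 2.24, 4.76 and 1.255 CPM in SKBR3 and had no count in MDA-MB-453. On the whole chromosome 24 ZNF genes were found in MDA-MB-453 only, 19 of them in the window, and 6 in SKBR3 only, 1 of them in the window. The genes of the cluster share sequence with each other, and reads that match several of them may be uncounted or shared.

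**Figure D4:**
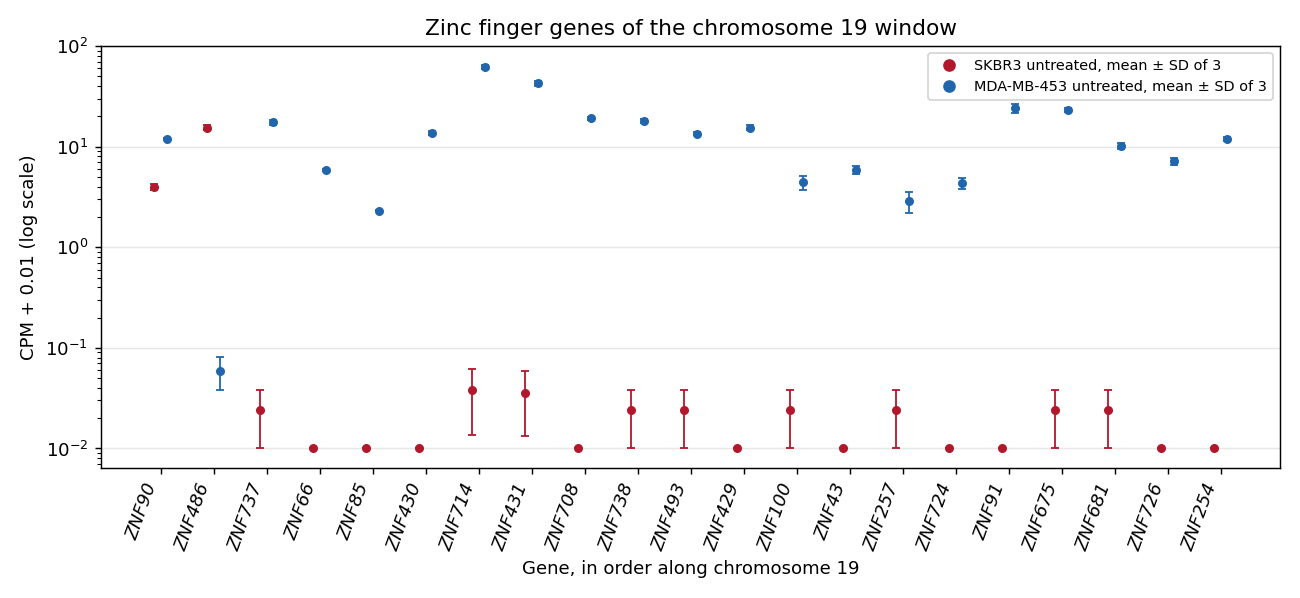
CPM + 0.01 on a log axis of the zinc finger genes of the chromosome 19 window with at least 0.5 CPM in either line, in order along the chromosome; points are means of 3 untreated libraries and bars are SD, cut at a level of 0. SKBR3 points lie at the bottom from ZNF737 onwards, and ZNF486 shows the reverse.

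Stretches before the start sites of 3 of these genes are given, 2 found in MDA-MB-453 and ZNF486, found in SKBR3, because neighbours in 1 cluster went opposite ways. They are 200 bases of RefSeq (GRCh38.p14), 5′ to 3′ on the strand of the gene, and the capitals mark CG dinucleotides, the sites of DNA methylation. ZNF714 is at chr19:21082003-21082202 on the plus strand, ZNF91 at chr19:23395472-23395671 on the minus strand and ZNF486 at chr19:20167014-20167213 on the plus strand.
ZNF714: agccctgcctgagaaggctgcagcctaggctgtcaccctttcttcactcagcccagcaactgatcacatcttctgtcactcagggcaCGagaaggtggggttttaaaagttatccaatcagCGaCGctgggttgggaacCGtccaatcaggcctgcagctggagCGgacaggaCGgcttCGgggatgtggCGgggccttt
ZNF91: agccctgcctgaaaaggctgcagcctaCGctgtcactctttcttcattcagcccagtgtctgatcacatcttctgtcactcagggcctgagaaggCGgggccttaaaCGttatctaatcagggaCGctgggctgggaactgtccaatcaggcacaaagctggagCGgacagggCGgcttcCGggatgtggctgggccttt
ZNF486: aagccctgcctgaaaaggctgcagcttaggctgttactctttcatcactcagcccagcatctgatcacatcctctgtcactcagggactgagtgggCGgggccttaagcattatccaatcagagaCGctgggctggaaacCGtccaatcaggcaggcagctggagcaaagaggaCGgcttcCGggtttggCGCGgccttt
The stretches hold 8, 7 and 7 CG dinucleotides. In the 300-base windows of 18 of the 19 ZNF genes found in MDA-MB-453 only, the median ratio of observed to expected CG was 0.45, and 1 of 18 (5.56%) reached a ratio of 0.6, which 17166 of all 35116 windows (48.9%) did. Among tested protein-coding genes the share was 86.05% over the 7362 of 12835 that had a window, while among those found in 1 line only it was 56.7% for SKBR3 (247 of 504 had a window) and 57.5% for MDA-MB-453 (87 of 166). These are too few matches for any of the 3 sets to stand for its genes. Methylation was not measured in these libraries.

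The difference between the lines was measured again in the 6 TWEAK-treated libraries, which the untreated comparison does not use. There 3460 genes were higher in SKBR3 and 2599 in MDA-MB-453 beyond 2-fold, of 16367 tested. Of 5961 genes called beyond 2-fold in the untreated cells and tested in both fits, 5428 (91.1%) were called in the same direction after TWEAK, which is 93.6% of the 5799 genes called after TWEAK that were also tested in the untreated cells, and 2 were called in the opposite direction. ERBB2 had a log2 fold change of 3.15 after TWEAK and 3.09 without it, and CLCA2 -10.10 and -10.41. RELB and TNFAIP3, genes of the NF-κB pathway, had log2 fold changes of 2.44 and 2.82 after TWEAK and of 3.75 and 3.98 without it.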

How the data were processed

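RNA-seq of SKBR3 and MDA-MB-453 cells, 3 untreated and 3 TWEAK-treated replicates per line, was analysed. The authors prepared poly(A) libraries, trimmed reads with Trimmomatic, aligned the reads (STAR, hg38) and obtained gene-level values with featureCounts, per the labels; the deposited values are raw counts in 2 tables, 1 per line. Tool versions, the annotation and the strand setting are not given in the sources used here, and the labels name a kit for DNA where the methods name a directional RNA kit. The methods call the replicates biological. All columns were mapped to samples.

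The 6 untreated columns were joined on 62696 gene identifiers, of which 62625 matched GENCODE 44, the source of symbols, positions and overlaps. In edgeR 4.0.16 (R 4.3.3) genes were filtered with filterByExpr, scaled with TMM and tested with the quasi-likelihood test of no difference and with glmTreat beyond 2-fold, two-sided, with Benjamini-Hochberg adjustment at 0.1. The prior count was 0.125. A 3 against 3 permutation test cannot go below 0.1 and was not used. Counts of at most 3 per library were taken as a floor. Totals of 24842722 to 28647209 counts per library give a 3-count floor of 0.111 CPM in MDA-MB-453 and 0.12 in SKBR3. Counting intervals are exact, at 95%. After the main fit, the tests were tried on simulated counts drawn from its means and dispersions, with 200 of 16315 genes changed. Far more genes were called between the lines, so this trial does not show how the tests do where most genes differ.

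Named genes were 40 genes listed by hand; per direction the 10 protein-coding genes of largest fold with at least 10 CPM, the 10 highest genes found in 1 line and the 3 highest lncRNAs; and per list the 2 largest called members of each direction. XIST and some further genes of this rule are not reported here, and other members named as examples were chosen after their values were seen. All members and lists were chosen with earlier results of these data known. Alternatives were DESeq2 1.42.0 and its size factors, other scalings and filters, all 12 libraries in 1 fit, a replicate block, a correction for GC content and gene length, a threshold of 0.05, and each library left out.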

Additional observations from a re-analysis of the deposited data

Results flagged for a closer look

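2 genes were called beyond 2-fold in opposite directions in the untreated and in the TWEAK-treated libraries, and an interaction term (line by treatment, 12 libraries, 17201 genes) was fitted in edgeR. Both genes were picked for opposite calls in the same 12 libraries, so that its p-values are no independent evidence of the change. TRAF1, an adaptor of TNF receptors, was at 0.428 ± 0.17 CPM in untreated SKBR3 and 1.11 ± 0.122 in untreated MDA-MB-453, and at 4.17 ± 0.635 and 1.45 ± 0.363 CPM after TWEAK (n = 3 each). Its line difference changed by 2.89 ± 0.36 (SE, log2; adjusted p in edgeR = 0.000146). IL27RA, a cytokine receptor chain, was at 0.631 ± 0.18 and 2.67 ± 0.271 CPM without TWEAK and at 18.2 ± 1.05 and 3.44 ± 0.246 CPM after it, a change of 4.50 ± 0.22 (edgeR adjusted p = 2e-09). No outlier test is given for single libraries in groups of 3, and counts with each library left out are given below. Among the untreated libraries, SKBR3 replicate 3 stood furthest from the others of its line. The chi-square per degree of freedom between its counts and those of replicates 1 and 2 was 5.2 and 3.905, against 1.697 between replicates 1 and 2. The MDA-MB-453 pairs had 1.99 to 2.551.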

How the results depend on the processing

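The counts of genes higher in SKBR3 and in MDA-MB-453 stayed within 1.5 times their values under every alternative that was run, for the test of no difference and beyond 2-fold. In the test of no difference the balance between the lines turned, from 7311 and 6915 to 6649 and 7638 with library totals and to 6928 and 7575 after correcting for GC content and length. Beyond 2-fold they were 3148 and 2173 with DESeq2, 3258 and 2984 with library totals alone and 4881 and 3269 without a filter on low counts. With library totals the median over all genes moved from 0.03 to -0.09 and the share of 2-fold calls that were higher in SKBR3 from 56.9% to 52.2%. Of the 6176 genes called beyond 2-fold, 5321 were called in the same direction by DESeq2 and 5920 with library totals, and none changed sign under any alternative in which it was tested. Leaving out each library in turn gave 3588 to 3671 and 2685 to 2743 genes beyond 2-fold, 672 to 692 and 250 to 273 genes found in 1 line, and 3528 to 3626 and 2557 to 2730 in the TWEAK-treated libraries.

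The replicate numbers do not pair the samples: same-numbered libraries deviated together with correlations of -0.04, 0.01 and -0.002. With the replicate number as a block, 3492 and 2625 genes were called beyond 2-fold, and 3314 and 2915 with the block and the correction for GC content and length, against 3334 and 2945 with the correction alone.

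Genes found in 1 line numbered 263 and 105 at a minimum of 5 CPM. In windows of 10 Mb the medians were 1.41 on chromosome 17, 1.99, 1.82 and -0.96 for the 3 windows of chromosome 8, -0.22 on chromosome 4 and -7.94 on chromosome 19, where the wider window holds other genes too.

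Of 154 named genes that were tested, 150 kept direction and call in all 17 alternatives. SPDEF, whose main value is near 0, changed sign to -0.11 with library totals (edgeR adjusted p = 0.0151), -0.02 without the filter, -0.0051 with all 12 libraries, -0.0017 with the block, -0.02 with the correction for GC content and length (-0.0172, and -0.0175 with the block), and to -0.06, -0.03 and -0.03 without SKBR3 replicate 3 and MDA-MB-453 replicates 2 and 3 (-0.0591 with an edgeR adjusted p of 0.0873, which is a call, -0.0255, -0.0266), with a highest value of 0.0452 without SKBR3 replicate 2. IGF1R changed to -0.0714 with library totals and to -0.13 with the correction (-0.125, and -0.126 with the block; edgeR adjusted p = 0.0113 and 0.0138), where it was called higher in MDA-MB-453. TAGLN was no longer called with the correction for GC content and length (0.0848, edgeR adjusted p = 0.359) or with this and the block (0.0831, adjusted p = 0.379), and ERBB3 was no longer called without SKBR3 replicate 2 (-0.08, edgeR adjusted p = 0.111).

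Depth limits statements below 0.111 CPM in MDA-MB-453 and below 0.12 CPM in SKBR3. Folds of genes with few counts in 1 line carry wide counting intervals. The lines were counted in separate tables, and line and run cannot be told apart.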
